A study of Danio rerio with 2 samples.

Results

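Among cells sorted from zebrafish embryos for a pigment cell reporter, 338 of 5631 passing cells (6.0%) carried transcripts of a matrix gene set that marks connective tissue and not pigment cells. These cells were chosen by their own counts. A cell entered the gate, which here means a rule on detected genes, when it held a unique molecular identifier (UMI, a tag that marks 1 captured transcript) of at least 3 of 5 rule genes. The rule genes were *fmoda*, *vwde*, *thbs4b*, *col6a2* and *col6a3*. The gate held 100 of 1771 control cells (5.65%, 95% interval 4.62 to 6.83%) and 238 of 3860 *mgat4b* mutant cells (6.17%, 5.43 to 6.97%). Because the rule used these counts, the levels of the rule genes and all differences between gated and other cells below are descriptions, with no test.

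Each group was 1 library at 36 hours post fertilisation (hpf). Both came from embryos injected with a plasmid that carries Cas9 and GFP, each under the *mitfa* promoter. The guide RNA in the plasmid was nontargeting in the control and directed at *mgat4b* in the mutant, and the labels give no treatment for either. The embryos were of the injected generation, so editing is somatic and differs from cell to cell. GFP-positive cells were isolated by flow sorting, and the number of embryos per library is not given in the sources used here. With 1 library per group there is no replicate, no test and no p-value. Intervals are at 95% and reflect counting error alone, so they say nothing of how embryos or libraries vary. Levels are CPM: the UMIs of a gene over all UMIs of the cells named, scaled to 1000000.

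Collagen VI forms beaded filaments in the matrix around cells, and in zebrafish as in other vertebrates *col6a1*, *col6a2* and *col6a3* encode the chains of its classical heterotrimer. Fibromodulin, encoded by *fmoda*, is a small leucine-rich proteoglycan that binds collagen fibrils, and *thbs4b* encodes a thrombospondin found at tendon attachments. *vwde* encodes a secreted protein with a von Willebrand factor D domain. At this stage such genes are expressed by mesenchyme of the somites, their sclerotome and dermomyotome derivatives, the fins and the head, from which tendon, dermal and fin fibroblasts arise.

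The libraries held 1923 and 4120 barcodes with 17502003 and 31032783 UMIs. Passing cells had over 200 detected genes and under 5% mitochondrial UMIs. Gated cells were deeper than the other passing cells of their library. The median gated cell held 12492 UMIs in the control (553 to 65859) and 9008 in the mutant (587 to 67070), against 4177 and 6229 in the other cells. The libraries shared 2 barcodes, of which 0 were gated. Doublets were kept. Of the cells with the highest doublet scores, 5 of 25 in the control and 14 of 119 in the mutant were gated. Both shares are above the gate's 5.65% and 6.17% of passing cells.

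All 5 rule genes were detected together in 37 control and 79 mutant cells, 37.0% and 33.2% of the gate. The next most frequent pattern was *fmoda* with *col6a2* and *col6a3* and neither of the others, in 17 and 43 cells. *fmoda* with *vwde* and *thbs4b* and no collagen VI rule gene followed, in 10 and 29 cells. These 3 patterns came in the same order in the libraries. The next pattern was *vwde* with *thbs4b* and *col6a2* in the control (7 cells, 11 in the mutant) and the 4 genes without *col6a3* in the mutant (20 cells, 4 in the control).

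*fmoda* reached 597 CPM in control gated cells (562 to 634, 1064 UMIs) and 1031 CPM in those of the mutant (991 to 1073, 2499 UMIs), against 37.0 and 52.4 CPM in the other cells. *vwde* stood at 464 and 864 CPM, and at 7.19 and 13.3 CPM in the other cells. *thbs4b* stood at 425 and 656 CPM, and at 11.2 and 14.6 CPM outside. The collagen VI genes of the rule were near level between the libraries inside the gate, with all gated cells counted. *col6a2* reached 509 and 497 CPM inside the gate and 6.53 and 10.7 CPM outside, and *col6a3* reached 407 and 383 CPM inside and 2.61 and 8.24 CPM outside. No cell held more than 2.53% of the UMIs of any of the 5 genes in the gate.

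Detection was also compared at equal depth. For this, UMIs were drawn from each cell down to 4614, the 10th percentile of gated cells, which left out 6 control and 28 mutant gated cells. *fmoda* was then detected in 73.4% and 78.6% of gated cells (85.0% and 89.5% unthinned). *col6a3*, the least detected in the mutant, was found in 52.1% and 51.9% (73.0% and 68.5% unthinned). Cells outside the gate that held at least 3 of 8 neuron markers, a type that should lack these genes, gave 2.43% and 2.15% for *fmoda* and 1.62% and 0.614% for *col6a3*. Of all cells with such markers, 16 of 380 in the control and 9 of 498 in the mutant were gated and not counted here. These low shares are thus set in part by the rule. Cells with 3 neuron markers had median depths of 8858 and 5773 UMIs before thinning.

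At the threshold, cells with exactly 3 rule genes (49 control, 109 mutant) stood next to cells with exactly 2 (59 control, 169 mutant). *col6a3* was at 208 and 250 CPM in the former and at 17.3 and 93.7 CPM in the latter. *fmoda* differed less, with 279 and 757 CPM at 3 genes and 305 and 423 CPM at 2. The median depth was 14037 and 8905 UMIs at 3 genes, and 15623 and 8541 at 2. The other 3 rule genes were also higher at 3 genes than at 2 in both libraries, and *fmoda* was not in the control. Since the rule used these genes, such steps are set in part by the rule.

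**Figure D1:**
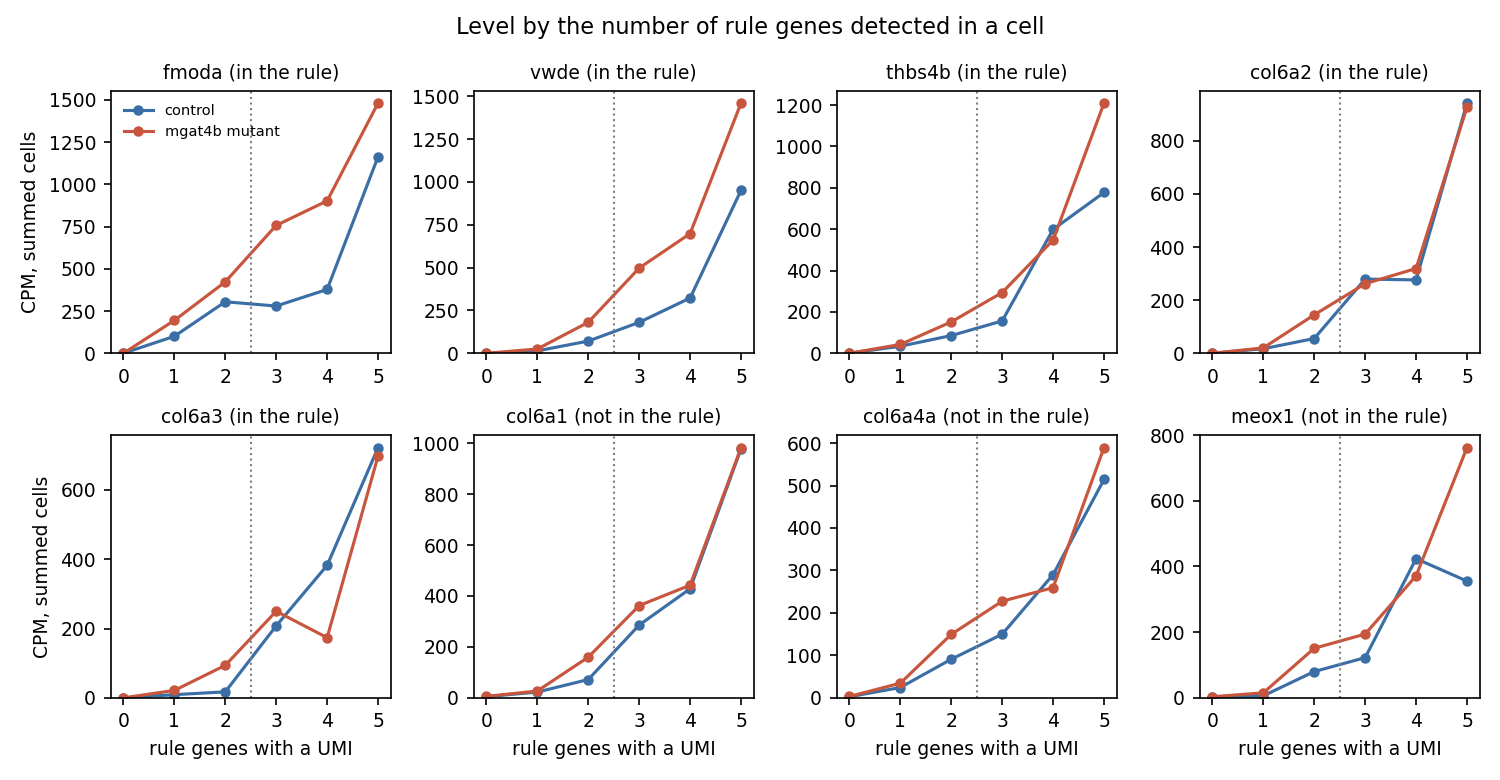
CPM (vertical axis, from 0) of the 5 rule genes and of 3 genes the rule did not use, over all passing cells with 0 to 5 rule genes detected (horizontal axis), in the control (blue) and mutant (red) library; points are sums over cells and the dotted line is the threshold of the gate. *col6a1*, which the rule did not use, climbed from 4.79 and 5.68 CPM at 0 rule genes to 978 and 983 CPM at 5.

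Collagen VI genes outside the rule followed the gate. *col6a1*, the chain that completes the heterotrimer, led the ranking by ratio of gated to other cells, which was taken over genes found in at least 25% of gated cells of each library. It reached 543 CPM in control and 588 CPM in mutant gated cells, against 12.3 and 17.1 CPM in the other cells. *col6a4a*, a further collagen VI chain, reached 293 and 356 CPM against 12.2 and 15.7 CPM. Genes of proteins that bind collagen VI were higher by less. *cspg4*, a transmembrane proteoglycan, was at 392 and 244 CPM against 130 and 82.5 CPM, and *antxr2a*, a collagen VI receptor, was at 125 and 117 CPM against 38.2 and 39.5 CPM. All 5 measured members of the list of other collagen VI chains and binders stood at least 2-fold above the other cells in both libraries. Over all 14733 genes with at least 50 UMIs in each library, 4.45% did so and 13.1% stood at least 2-fold below.

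Regulators of somite mesenchyme were the next set near the top of the ranking. *meox1*, a homeobox gene of the somite, was at 240 and 423 CPM in gated cells and at 9.28 and 12.95 CPM in the others. *tcf15*, a helix-loop-helix gene of the dermomyotome also known as paraxis, was at 34.2 and 57.8 CPM against 0.784 and 2.11 CPM. *twist1b*, a helix-loop-helix gene of mesenchyme, was at 56.1 and 86.3 CPM against 5.42 and 8.85 CPM. Of 18 measured sclerotome and mesenchyme regulators, 12 were at least 2-fold above the other cells in both libraries and 0 were 2-fold below. The 12 included *twist1a* at 213 and 246 CPM against 30.6 and 35.9 CPM, and the sclerotome genes *nkx3-2* and *pax9*. *nkx3-2* was at 20.8 and 24.4 CPM against 3.66 and 3.35 CPM, and *pax9* at 8.42 and 13.6 CPM against 3.33 and 2.11 CPM. The sclerotome gene *pax1b* of the same list had too few UMIs to be among the 18. It had 1 and 0 UMIs in gated cells, 0.561 and 0 CPM against 1.24 and 0.963 CPM.

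Matrix genes made up most of the other leading genes. *cilp*, a cartilage intermediate layer protein gene, was at 122 and 188 CPM against 4.77 and 6.07 CPM. *comp*, a thrombospondin of cartilage and tendon, was at 76.3 and 259 CPM against 6.99 and 9.63 CPM. *col5a2a*, a chain of the fibril-nucleating collagen V, was at 696 and 701 CPM against 48.9 and 42.3 CPM. The proteases *fap*, *adamts1* and *adamts15a* were among the 15 leading genes. *fap*, a fibroblast surface protease, was at 118 and 86.3 CPM against 4.97 and 4.104 CPM, and *adamts15a*, which belongs to a family that cleaves proteoglycans, was at 121 and 160 CPM against 11.7 and 8.74 CPM. ENSDARG00000078362, an identifier without a symbol in the files and listed as TNC in the gene name table, was at 687 and 581 CPM against 38.4 and 23.3 CPM. *pdgfrl*, *mxra8b* and the chemokine gene *ccl25b* completed the 15, with ratios of 12.3 to 22.6 over the libraries.

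**Figure D2:**
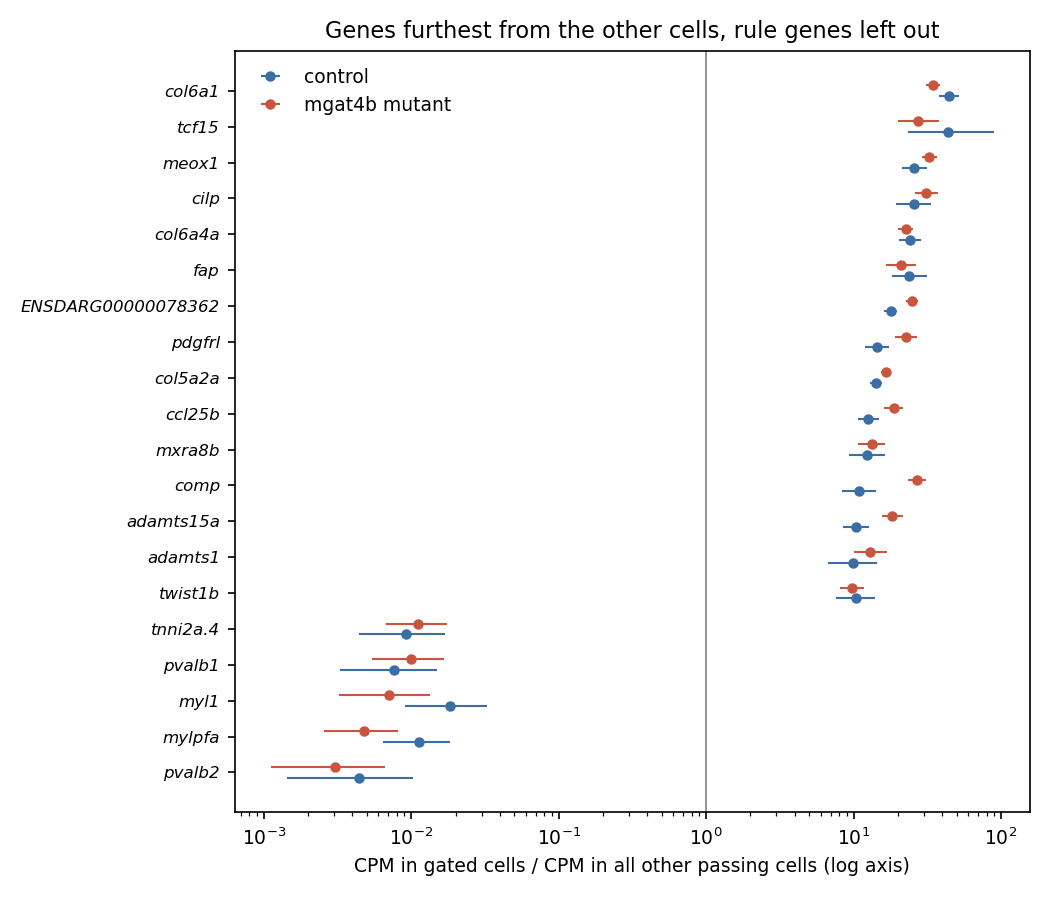
Ratio of CPM in gated cells to CPM in all other passing cells (horizontal log axis) for the 15 genes with the largest ratio among those in at least 25% of gated cells and the 5 with the smallest among those of at least 200 CPM in other cells, rule genes left out, in the control (blue) and mutant (red) library with exact 95% intervals for counting error. *col6a1* leads with ratios of 44.2 and 34.5, and the 5 lowest, genes of fast muscle, lie at 0.0182 or below.

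Tendon genes were widely shared by gated cells. 8 of 11 measured tendon genes stood at least 2-fold above the other cells in both libraries. *scxa*, the scleraxis gene of tendon progenitors, was at 42.7 and 32.2 CPM against 4.05 and 3.21 CPM, and *postnb*, a periostin gene, at 2036 and 2204 CPM against 910 and 474 CPM. At least 2 tendon genes were detected in 89 of 94 control and 203 of 210 mutant gated cells at 4614 UMIs, and in 42.4% and 34.4% of other cells. The list contains genes that many fibroblasts use, such as *postnb* and *col12a1b*, so this share does not define tendon cells. *tnmd*, a gene of differentiated tendon cells, had 55 and 20 UMIs, of which 1 cell held 61.3%.

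Many genes of interstitial matrix and its enzymes were higher inside the gate, and fewer basement membrane genes were. 10 of 16 matrix glycoprotein and proteoglycan genes were at least 2-fold above the other cells in both libraries and 0 were 2-fold below. For matrix proteases and inhibitors it was 8 of 14 above and 2 below, and for basement membrane genes 6 of 19 above and 2 below. Small leucine-rich proteoglycans besides *fmoda* went both ways, with 2 of 9 above and 3 below. *col5a1* reached 3592 and 3472 CPM against 519 and 402 CPM, and *mfap2*, a gene of elastic microfibrils, reached 344 and 423 CPM against 59.6 and 67.7 CPM. Among fibrillar collagens 6 of 11 were 2-fold above and 4 were 2-fold below. *col2a1a*, the collagen of cartilage and notochord, was lower in gated cells, at 221 and 465 CPM against 2610.4 and 2078 CPM. None of 15 proliferation, 13 p53 response and 16 immediate early and stress genes was 2-fold apart in both libraries, which holds for the gated against other comparison and the CPM scale.

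The sorted cells carry the label melanocytes, and the gate was checked against that label and other types. Of 7 measured melanophore markers 0 were 2-fold above the other cells and 6 were 2-fold below in both libraries. *tyrp1b* had 0 UMIs in mutant gated cells. *oca2* was at 23.0 and 12.8 CPM against 5.16 and 16.3 CPM, so it was higher in the control, with 44.4% of its gated UMIs in 1 cell. *mitfa*, whose promoter drives the reporter, was at 5.05 CPM in control and 20.6 CPM in mutant gated cells (9 and 50 UMIs), against 13.8 and 47.7 CPM in the other cells. At least 3 melanophore markers were found in 1 and 0 gated cells (1% and 0%), against 0.838% and 2.62% of other cells. For 3 xanthophore markers it was 2 and 11 cells (2% and 4.62%, against 2.39% and 11.2%). For 3 neural crest markers it was 2 and 5 cells (2% and 2.10%, against 2.87% and 5.05%). The control shares, unthinned, were close to those of the shallower other cells. All 5 *prrx1* mesenchyme markers, in contrast, were at least 2-fold above the other cells in both libraries. The gated cells thus carried mesenchyme markers and were lower than the other cells in 6 of 7 measured markers of the labelled cell type. Few of the other cells held 3 melanophore markers either.

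Epidermis transcripts were frequent in gated cells as in the others. At least 3 epidermis markers were found in 98.0% of control and 74.8% of mutant gated cells, close to the 96.3% and 69.9% of other cells, and 9 of 10 epidermis markers were 2-fold lower in gated cells. *krt4*, a keratin, was at 4712 and 2778 CPM against 18219 and 10776 CPM. 16 control and 9 mutant gated cells held 3 neuron markers (16% and 3.78%, against 21.8% and 13.5% of other cells). 15 and 11 held 3 neural progenitor markers (15% and 4.62%, against 14.4% and 16.6%). 23 and 20 held 3 notochord and cartilage markers (23% and 8.40%, against 8.74% and 5.66%). These shares are unthinned, and gated cells were deeper than the others. At equal depth the notochord and cartilage shares were close, at 9.57% and 7.14% of gated cells against 8.31% and 6.12% of other cells. The summed level of these markers was lower in gated cells, at 422 and 767 CPM against 3857 and 3058 CPM. 1 mutant cell held 98.8% of the *hbae3* globin UMIs of the gate, and 1 control cell held 97.1% of those of the iridophore gene *defbl1*. Genes of fast muscle were the lowest of all: *pvalb2* had 5 and 6 UMIs, or 2.81 and 2.48 CPM against 637 and 813 CPM.

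Cells with at least 3 of 5 *prrx1* mesenchyme markers (*prrx1a*, *prrx1b*, *twist1a*, *twist1b* and *pdgfra*) were the most similar set and overlapped the gate. 60 control and 120 mutant cells were in both sets, which was 60% and 50.4% of the gate and 44.8% and 38.2% of the *prrx1* set. The *prrx1* cells outside the gate numbered 74 and 194, with median depths of 15208 and 10112 UMIs. They had less of the somite genes: *meox1* was at 33.7 and 67.7 CPM, 7.11-fold and 6.26-fold below gated cells, and *tcf15* had 0 UMIs in the control and stood at 4.41 CPM in the mutant. *col6a1* was at 65.1 and 85.3 CPM there. They had more *cyp26c1*, a retinoic acid hydroxylase gene (193 and 304 CPM against 66.2 and 14.0 CPM), and more *fli1a* (180 and 136 CPM against 53.3 and 31.4 CPM). *col1a1a*, a collagen I chain, was similar, at 3958 and 2449 CPM inside the gate and 3795 and 1875 CPM in *prrx1* cells outside it.

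Homeobox genes of the Hox clusters, which are used in order along the body axis, were more frequent in the gate and most so for the posterior groups. Hox genes of paralogue groups 1 to 3 stood at 458 and 515 CPM, 1.77-fold and 2.38-fold above the other cells. Groups 4 to 6 were 1.85-fold and 2.19-fold higher, groups 7 to 9 were 2.76-fold and 3.36-fold higher, and groups 10 to 13 were 3.82-fold (3.33 to 4.38) and 4.72-fold (4.31 to 5.17) higher. Groups 10 to 13 were detected in 40 control and 98 mutant gated cells, 40.0% and 41.2%, against 9.22% and 12.3% of the shallower other cells.

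The 3 most frequent patterns of rule genes differed in genes that the rule did not use. The genes below were picked from these cells for their difference between patterns in both libraries, so the values are a description. Genes that were high in a pattern through 1 cell, such as the keratins, were not taken as marks of it. The 3-gene patterns are small, and low levels in them often rest on 1 to 4 cells.

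Cells with all 5 rule genes carried somite and matrix genes, among them *pax7a* and *pax3a*, which are used in dermomyotome and in other cells. *fgl1*, a fibrinogen-like gene, was at 370 CPM in control and 210 CPM in mutant cells with all 5 genes (26 and 36 cells), and had 0 to 1 UMIs in each 3-gene pattern of each library. *fbln7*, a fibulin gene, was at 127 and 126 CPM in them and at 14.3 CPM or less in the 3-gene patterns. *pax7a*, a gene of dermomyotome, muscle progenitors and xanthophore precursors, was at 490 and 321 CPM in cells with all 5 genes. Its levels in the 3-gene patterns ran from 9.25 to 193 CPM, and in the highest of these 1 cell held 63.0% of the UMIs. *pax3a*, which acts in dermomyotome and neural crest, was at 175 and 254 CPM. *uncx4.1*, a homeobox gene of the somite, was at 66.5 and 78.9 CPM, and at 14.3 CPM or less in the 3-gene patterns. *postnb* at 3846 and 3279 CPM and *fap* at 250 and 163 CPM were also highest here.

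Cells with *fmoda*, *vwde* and *thbs4b* but neither collagen VI rule gene had *meox1* and *tcf15*, but little *uncx4.1*. *meox1* was at 238 and 400 CPM in 7 and 21 cells. *tcf15* was at 48.5 and 78.5 CPM in 3 and 11 cells, with 80% of the control UMIs in 1 cell. *comp* was at 92.1 and 342 CPM and *angptl7*, an angiopoietin-like gene, at 432 and 1134 CPM. *tnc*, a tenascin gene of tendon and cartilage matrix, reached 1144 and 1013 CPM, against 437 and 176 CPM in cells with all 5 genes. *matn4*, a matrilin gene, reached 868 and 753 CPM against 174 and 99.9 CPM. *nkx3-2* reached 116 and 74.9 CPM against 9.74 and 8.63 CPM, but in 4 and 7 cells, with 62.5% of the control UMIs in 1 cell. *col6a1* was down to 43.6 and 82.0 CPM, so the third chain was low where the rule had found no UMI of the others.

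Cells with *fmoda*, *col6a2* and *col6a3* but neither *vwde* nor *thbs4b* had few UMIs of these genes. *meox1* had 3 and 2 UMIs, 10.7 and 4.62 CPM. *cilp* and *comp* had 0 UMIs in the 17 control cells, which allows up to 10.7 CPM, and 3 and 1 UMIs in the 43 mutant cells. *col6a1* was at 762 and 717 CPM. *lum*, the lumican gene of a further leucine-rich proteoglycan, was at 272 and 215 CPM, against 61.7 and 25.9 CPM in cells with all 5 genes and 29.1 and 10.7 CPM in the *vwde* pattern. *alx4a*, a homeobox gene of head and fin mesenchyme, was at 261 and 183 CPM against 24.3 and 13.6 CPM and 9.70 and 32.1 CPM. The median depths were 10607 and 7836 UMIs with all 5 genes, 14037 and 9047 in the collagen VI pattern, and 12312 and 8905 in the *vwde* pattern.

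**Figure D3:**
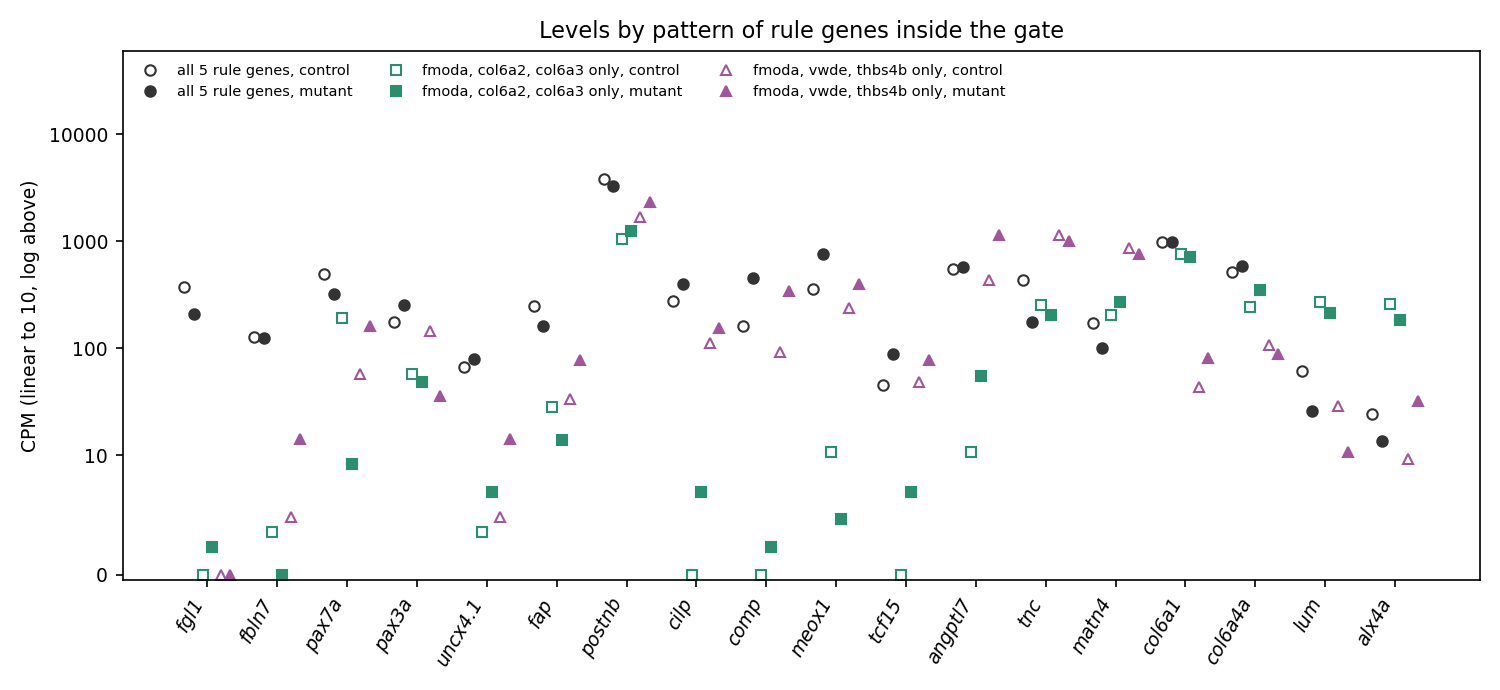
CPM (vertical axis, linear to 10 and logarithmic above) of 18 genes outside the rule in the 3 most frequent patterns of rule genes: all 5 (circles, 37 control and 79 mutant cells), *fmoda*, *col6a2* and *col6a3* only (squares, 17 and 43) and *fmoda*, *vwde* and *thbs4b* only (triangles, 10 and 29); open symbols are control and filled symbols mutant. The squares are near 0 for *cilp*, *comp*, *meox1* and *tcf15* and highest for *lum* and *alx4a*.

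The share of cells in the gate was compared between the libraries to see whether the mutant library held more or fewer of them. The ratio of mutant to control was 1.09 (Katz interval 0.870 to 1.37). With cells drawn down to 836 UMIs, the 25th percentile of control cells, 24 of 1330 control and 64 of 3585 mutant cells passed, and the ratio was 0.989 (0.621 to 1.57). The thinning left out 441 control and 275 mutant cells. The denominators differ in depth: 30.2% of control and 9.22% of mutant passing cells were under 1000 UMIs, of which 1 control and 2 mutant cells were gated. Without such cells the ratio was 0.841 (0.671 to 1.05). A difference in share was not detectable at this depth.

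**Figure D4:**
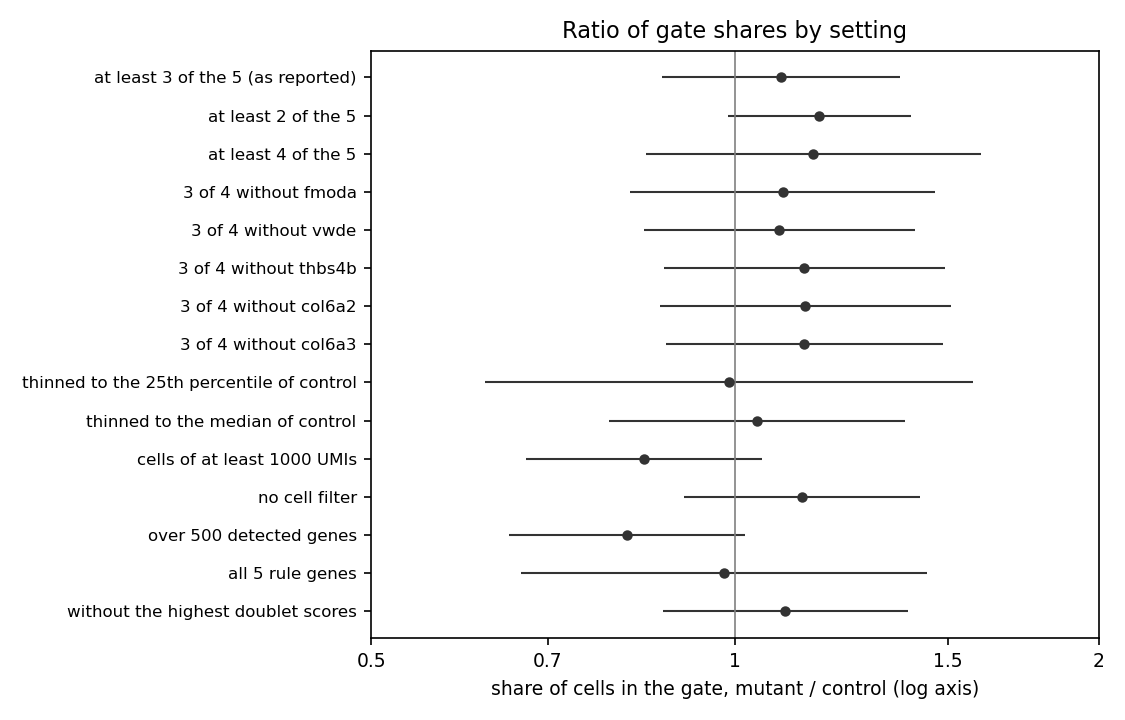
Ratio of the share of cells in the gate, mutant over control (horizontal log axis), as reported and under the alternatives, with Katz 95% intervals for counting error. The points lie between 0.814 and 1.17, and each interval includes 1.

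Transcripts of *mgat4b*, whose enzyme transfers N-acetylglucosamine to start an antenna of N-glycans, were read first in the gated cells. They stood at 56.7 CPM in control cells (46.2 to 68.9, 101 UMIs) and 55.7 CPM in mutant cells (46.7 to 65.9, 135 UMIs), a ratio of 0.983 (0.754 to 1.28). In the other cells the ratio was 0.779 (0.724 to 0.837). Counts of 3′ tags do not read the edited site, so they do not check the label or the editing. At 4614 UMIs *mgat4b* was detected in 23.4% and 18.6% of gated cells and in 24.7% and 27.9% of neuron-marker cells outside the gate. Of 8 measured N-glycan branching genes 2 were at least 2-fold lower in the mutant gated cells and 0 were 2-fold higher. Over all 8078 genes with at least 50 UMIs in gated cells, 7.89% were lower and 1.88% higher. The 2 genes were *mgat5* (45.5 and 20.6 CPM) and *mgat4c* (23.6 and 9.90 CPM, with 25.8% of its UMIs in 1 cell). Each was past 2-fold in 4 of 9 alternatives, with ratios up to 0.756 for *mgat5* and 0.970 for *mgat4c*. Outside the gate their ratios were 0.616 and 0.394.

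Of 8078 genes with at least 50 UMIs in gated cells, 152 (1.88%) were at least 2-fold higher and 637 (7.89%) at least 2-fold lower in the mutant. The median log2 ratio was −0.18. TMM scaling moves every log2 ratio up by 0.24 (a factor of 1.18) and the median to 0.06. The counts were then 267 higher and 420 lower, which is 38.9% higher among called genes against 19.3% on the CPM scale.

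The rule genes did not move together. *vwde* was 1.86-fold higher in mutant gated cells (1.72 to 2.02), *fmoda* 1.73-fold (1.61 to 1.86) and *thbs4b* 1.54-fold (1.42 to 1.69), whereas *col6a2* and *col6a3* had ratios of 0.978 and 0.941. Outside the gate the ratios were 1.86, 1.42 and 1.30 for *vwde*, *fmoda* and *thbs4b*, and 1.64 and 3.15 for the collagens. By the rule, cells there hold at most 2 of the 5 genes. In cells with all 5 genes the ratios were 1.53, 1.27 and 1.56 for *vwde*, *fmoda* and *thbs4b*, and 0.984 and 0.966 for the collagens. The ratios changed with the cells counted. In 1 alternative, gated cells that held 3 markers of muscle, neural, pigment, endothelial, blood, notochord or cartilage cells were left out (55 control and 186 mutant cells left). There *fmoda* was at 0.991, *col6a2* at 0.527 and *col6a3* at 0.491. None of the 5 was past 2-fold in the gate as a whole on the CPM scale, and with TMM scaling *vwde* (2.20) and *fmoda* (2.04) were.

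*comp* had the largest mutant over control ratio among the 15 genes that led the gate. It had 136 UMIs in control and 628 UMIs in mutant gated cells, 76.3 and 259 CPM, a ratio of 3.40 (2.82 to 4.12). The ratio was 2.80 in cells with all 5 rule genes and 2.23 to 4.0 over the alternatives, and in cells outside the gate it was 1.38. *serpinh1b*, the collagen chaperone HSP47, was at 76.3 and 179 CPM, a ratio of 2.34, and at 1.11 outside the gate. It was the only 1 of 21 collagen folding, modification and export genes past 2-fold, and its ratio in cells with all 5 rule genes was 1.44. Over all 8078 genes 1.88% were at least 2-fold higher. *hapln1b*, a hyaluronan link protein gene, was lower, at 67.9 and 27.7 CPM, with ratios of 0.290 to 0.482 over the alternatives.

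The 10 genes with the largest mutant over control ratios included 4 of vitamin A metabolism. *cyp26a1*, which clears retinoic acid, was at 14.0 and 66.4 CPM (25 and 161 UMIs), a ratio of 4.74 (3.09 to 7.53). *stra6*, a retinol transporter gene, was at 13.5 and 60.3 CPM in 28 cells in all, *cyp27c1*, a retinol desaturase, at 19.6 and 73.9 CPM, and *dhrs3b*, a retinaldehyde reductase, at 11.2 and 37.6 CPM. In cells outside the gate the ratios were 1.05, 0.587, 1.52 and 0.814 in the same order. These genes were grouped after their values were seen. *rdh10a*, a retinol dehydrogenase of the same pathway looked up for that reason, was at 99.3 and 244 CPM (2.46, 2.08 to 2.93) and at 1.097 outside the gate. Others looked up with it went both ways. *cyp26c1* was at 0.212 (with 38.2% of its UMIs in 1 cell) and *cyp26b1* at 0.860. The retinoic acid receptor genes *rarab*, *rarga* and *raraa* had ratios of 0.570, 0.756 and 0.827. *rdh10b* was at 3.55 (1.45 to 10.5, 6 and 29 UMIs), *crabp2a* at 1.38, *dhrs3a* at 1.35 and *nr2f5* at 1.31. The intervals of *cyp26b1* (0.586 to 1.27) and *dhrs3a* (0.893 to 2.07) include 1. *aldh1a2*, the synthesis enzyme of retinoic acid, was at 95.4 and 135 CPM (1.42, 1.18 to 1.72) and at 2.41 outside. In the lowest alternative, thinned gated cells, *cyp26a1* stood at 1.99.

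Other genes among the 10 were higher in the whole mutant library. *atp6v0e1*, a subunit of the vacuolar proton pump, was at 127 and 455 CPM in gated cells and at 138 and 431 CPM in the others. *hsp70.3* was at 15.2 and 93.7 CPM in gated cells and at 15.2 and 43.3 CPM in the others, and *hsp90aa1.2* at 35.4 and 118 CPM and at 41.5 and 72.1 CPM. Of 16 immediate early and stress genes 3 were at least 2-fold higher in mutant gated cells and 2 lower, against 1.88% and 7.89% of all 8078 genes. Higher were *dnajb1b*, *hsp70l* (8 and 51 UMIs) and *hmox1a* (11 and 128 UMIs, with 33.1% in 1 cell). Lower were *junbb* and *hspb1*. In cells with all 5 rule genes *hmox1a* was at 1.19 and *hspb1* at 3.80. *dnajb1b*, a chaperone gene, was at 67.9 and 154 CPM, and its ratio was 2.26 in the gate and 2.21 outside it. The medians of this list and of 11 p53 response genes, log2 0.33 and 0.37, stood above the −0.18 of all genes. In cells with all 5 rule genes they were 0.24 and 0.05, with −0.14 for all genes.

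The 10 genes with the smallest ratios were mainly genes of neural cells. *ptprz1b*, a receptor phosphatase of glia and neural progenitors, was at 55.6 and 4.13 CPM (99 and 10 UMIs), and *slc1a2b*, a glutamate transporter gene, at 48.8 and 6.60 CPM. Neuron markers moved with them: 7 of 8 were at least 2-fold lower, and the sum of the list was 647 CPM in control and 188 CPM in mutant gated cells. The sum was also lower in the mutant outside the gate, at 1849 and 1073 CPM. Without the gated cells with markers of other types, 7 UMIs each of *ptprz1b* and *slc1a2b* were left. *znf536*, *nfia*, *her15.1* and *en1b* kept ratios of 0.142, 0.195, 0.157 and 0.0999 there. Outside the gate their ratios were 0.759, 0.509, 0.170 and 0.602, so *her15.1* was about as low in the rest of the mutant library. The part of neural cells in the control levels of these 4 genes was not tested.

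*en1b* and its paralogue *en1a*, homeobox genes used in muscle pioneers, dermomyotome and midbrain, were lower in mutant gated cells and sat in cells with all 5 rule genes. *en1b* was at 55.0 and 9.08 CPM (98 and 22 UMIs), a ratio of 0.165 (0.0989 to 0.264), and at 0.602 outside the gate. *en1a*, looked up for that reason, was at 60.6 and 12.4 CPM (108 and 30 UMIs). In cells with all 5 rule genes *en1b* was in 15 of 37 control and 9 of 79 mutant cells, and *en1a* in 11 and 7. *pax7a* and *pax3a*, also frequent in those cells, had ratios over the whole gate of 0.679 (0.545 to 0.924 over the alternatives) and 1.63 (1.05 to 1.93). *pax3a* was at 1.05 with the mean of per-cell CPM and at 1.07 without gated cells that held markers of other types.

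Of 3 Hedgehog targets looked at, *hhip* alone was past 2-fold. *hhip*, a Hedgehog-binding inhibitor that the pathway induces, was at 173 and 73.9 CPM, a ratio of 0.426 (0.352 to 0.514). It was the only 1 of 22 signalling genes past 2-fold, and over all 8078 genes 7.89% were lower and 1.88% higher. *gli1* was at 107 and 57.8 CPM (0.539, 0.430 to 0.674) and *ptch1* at 89.8 and 57.4 CPM (0.639, 0.505 to 0.807). Outside the gate the ratios were 0.941, 0.819 and 0.861. The ratio of *hhip* was 0.202 to 0.546 over the alternatives and past 2-fold in 6 of 9. Of the signal receptors, *pdgfra* was at 273 and 346 CPM and *fgfr2* at 480 and 371 CPM, neither past 2-fold.

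Fin fold and fin bud genes were uneven. *and1* and *and2* encode actinodins, which build the fibrous rays of the fin fold. *and1* was at 349 and 64.8 CPM and *and2* at 245 and 16.5 CPM, but only 11 control and 14 mutant gated cells held *and1*, and 1 cell held 46.6% of the *and2* UMIs. Outside the gate *and1* was at 172 and 61.9 CPM. *tbx5a*, a gene of the pectoral fin bud, had 41 and 12 UMIs. In cells with all 5 rule genes *and1* had 8 and 0 UMIs and *and2* had 0 and 1, whereas *hmcn2*, a hemicentin of the same list, was in 26 of 37 and 40 of 79 such cells.

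The leucine-rich proteoglycans besides *fmoda* had low counts, and 6 of 13 passed the minimum of 50 UMIs. *dcn*, the decorin gene, was at 294 and 219 CPM and *lum* at 85.3 and 67.7 CPM. *ogna*, an osteoglycin gene, had 90 and 21 UMIs (50.5 and 8.67 CPM), with ratios of 0.125 to 0.340 over the alternatives. *epyc* was past 2-fold in the opposite direction, but 1 cell held 81.7% of its UMIs. *col1a1a* was at 3958 and 2449 CPM, a ratio of 0.619, and at 0.535 outside the gate. Among 16 sclerotome and mesenchyme regulators 0 were past 2-fold, with a median log2 ratio of 0.21 against −0.18 for all genes. *meox1* was the highest of those named, at 1.77 (1.58 to 1.98). It was past 2-fold in 2 of 9 alternatives, as was *twist1b*. In cells with all 5 rule genes *meox1* was at 2.14 and *twist1b* at 2.32.

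**Figure D5:**
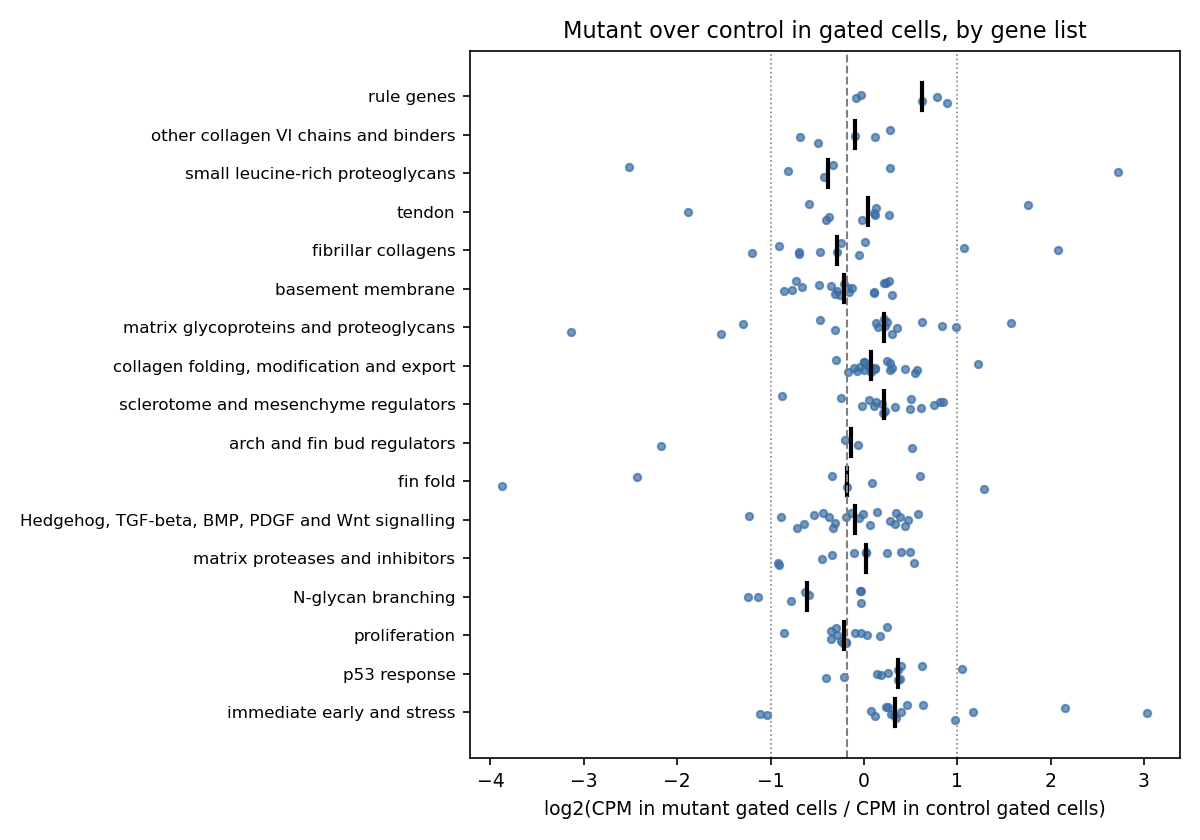
Log2 ratio of mutant over control CPM in gated cells (horizontal axis) for members with at least 50 UMIs of the rule genes and 16 gene lists (points), with list medians (black bars), the median of all 8078 genes (dashed, −0.18) and 2-fold either way (dotted). The rule genes, which chose the cells, are a description: members run from −0.09 to 0.90, with a median of 0.63. Among the 16 lists p53 response (0.37) and stress (0.33) have the highest medians and N-glycan branching the lowest (−0.61). Without gated cells that held markers of other types, N-glycan branching is at −0.14 with 5 members left, and all genes are at −0.08.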

How the data were processed

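Per library, the authors deposited UMI counts of genes by cell barcodes, made with Cell Ranger (7.2.0 in the matrix headers) against GRCz11. These counts were whole numbers, not normalized. Counts of gene identifiers that share a symbol were summed (*col6a3* has 2). Cells with over 200 detected genes and under 5% mitochondrial UMIs passed, which are the limits the study's methods state. The members and gene lists were chosen with earlier results of these data known.

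Levels are CPM of the summed cells, with exact Poisson intervals. Ratios carry exact conditional binomial intervals, shares Clopper-Pearson intervals and ratios of shares Katz intervals, all at 95%. Log2 ratios used a prior of 0.5 UMI, and a count of 0 was read as allowing 3. A gene was called past 2-fold with at least 50 UMIs in gated cells. Named were the rule genes and *mgat4b*, the 15 largest and 5 smallest ratios of gated to other cells, the 10 largest mutant over control ratios each way (at least 100 UMIs, 10 cells and no cell over 25% of the UMIs), list members past 2-fold and the 3 list members with most UMIs. Genes of the patterns, *cyp26c1*, *fli1a*, retinoid genes beyond those ranked, *en1a*, *pax3a*, *pax7a*, *pax1b*, *pax9*, *gli1* and *ptch1* were chosen after their values were seen. Alternatives covered the gate, depth, cell filter, doublets (Scrublet in scanpy 1.11.5, highest scores at 0.8% per 1000 cells, because its threshold marked 0 and 1 cells), scaling (edgeR 4.0.16 TMM), minimum and fold. The calculation of ratios and intervals was run on simulated Poisson counts. These do not cluster in single cells as some genes here do, so the intervals were not tested for such genes. No coordinates or sequences are printed, since no GRCz11 annotation was used here.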

Additional observations from a re-analysis of the deposited data

How the results depend on the processing

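The ratio of gate shares moved beyond its interval in 2 alternatives, to 0.841 among cells of at least 1000 UMIs and to 0.814 among cells with over 500 detected genes, which both remove more control than mutant cells. The counts of genes at least 2-fold higher and lower in the mutant (152 and 637) were 267 and 420 with TMM factors, 88 and 171 in gated cells thinned to 4614 UMIs, 348 and 1382 with at least 20 UMIs, 90 and 309 with at least 100 UMIs, and 71 and 226 at 3-fold. The lower count was 354 when the top cell of each gene was dropped, 301 without gated cells that held markers of other types, and 361 in cells with all 5 rule genes. The last pair was chosen after seeing the data, and fewer genes were tested in them. The planned version that also left out cells with epidermis markers was not run, because 2 control cells were left. Directions of genes past 2-fold reversed as follows. Without cells with markers of other types the ratio of *ptprz1b* was 6.03, *slc1a2b* 1.74, *ncanb* 2.82, *epyc* 0.456, *col5a3b* 1.01, *col2a1a* 0.551, *col11a2* 0.849, *spon1a* 2.82 and *and2* 1.05. With the top cell dropped *epyc* was at 0.669, *tnmd* 1.54, *col11a2* 0.963 and *spon1a* 1.198. With at least 4 rule genes *epyc* was at 0.756, *col11a2* 0.436, *spon1a* 1.61 and *hspb1* 1.76, and with at least 2 *hspb1* was at 1.36. In cells with all 5 rule genes *chl1b* was at 1.30, *spon1a* 3.29, *and2* 2.28 and *hspb1* 3.80. The cause was not tested for these genes. Of 144 list medians under the alternatives, 14 moved and 0 reversed. Of 945 ratios of named genes, 530 stayed within their interval, 393 moved beyond it and the 22 above reversed. No paired analysis was possible because each group is 1 library, and no library could be left out. Ratios of genes under 50 UMIs in the gate were not called, which at this depth left out 5 of 21 measured sclerotome and mesenchyme regulators.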
